A study of Saccharomyces cerevisiae with 91 samples.

Results

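H4d4-14, a strain of budding yeast (Saccharomyces cerevisiae) whose histone H4 lacks residues 4 to 14 of its amino-terminal tail, was compared with the wild-type strain BY4741 grown at 30 °C. The comparison took 24 of the 91 samples of the series. These were 4 libraries of H4d4-14, namely 2 repeat libraries of each of 2 replicates, and 20 samples of BY4741. Repeat libraries of a replicate were summed. The 20 BY4741 samples make up 17 replicates, and 16 of these, with 18 libraries, have columns in the tables used here. The assay was Micro-C, in which micrococcal nuclease cuts fixed chromatin in the linkers, nucleosomes that lie close together are ligated end to end, and the paired ends of each ligation product are sequenced. Per the labels, both strains grew in YPD medium at 30 °C to mid-log phase. Fixation took 15 min in 3% formaldehyde, and libraries were made from DNA cut out of a gel at about 250 to 350 bp. BY4741 carries its histone genes on the chromosomes. The label of a related wild-type control, H4-WT, places H3 and H4 on a plasmid, whereas the label of H4d4-14 gives the allele alone. H4-WT has 1 library and H4R23A, a strain with a substitution further along H4, has 2 replicates. H4K16Q, a substitution in the tail, and H4Q93E, a substitution further along H4, have 1 replicate each. These strains, and 1 BY4741 library each made without crosslinking and without ligation, were used beside the comparison.

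The tail of histone H4 reaches out of the nucleosome and holds lysines that acetyltransferases such as Esa1 and Sas2 modify. A basic stretch of the tail, next to the residues deleted here, touches the acidic patch of a neighbouring nucleosome and promotes the folding of nucleosome arrays in vitro. In yeast the same tail is bound by Sir3 at silent loci and stimulates the remodeller Isw1.

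Coverage differed widely between replicates. The 2 H4d4-14 replicates held 17061352 and 7673776 listed read pairs up to 10000 bp apart, against 1278747 to 16480078 in BY4741, and 533761 and 143815 pairs that span a nucleosome-depleted region (NDR), the gap in the nucleosome array found at most promoters. BY4741 replicates held 105690 to 1304896 spanning pairs. The 2 libraries of H4d4-14 replicate 1 were not alike: 1 held 382959 and the other 150802 spanning pairs, and their counts over NDRs differed by more than sampling noise (chi-square per degree of freedom 2.18, against 1.32 for the libraries of replicate 2). The labels do not say that replicates came from separate cultures, so the p-values below measure the spread between these libraries, which may be technical.

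The chromosomal histone genes checked the genotype, in gene tables that pool all H4d4-14 libraries into 1 column. Short-fragment and long-fragment reads inside HHF1 and HHF2, the H4 genes, stood at 14.6% (95% exact interval for counting error 12.2 to 17.4%, 130 reads) and 15.3% (12.8 to 18.1%, 134 reads) of their BY4741 level. HHT1, an H3 gene, stood at 15.3% and HHT2, the other H3 gene, at 28.1%. In H4R23A the HHF1 level was 1.38% of BY4741 and that of HHT2 18.0%, and in H4K16Q these were 8.37% and 27.7%. LYS2, CAN1 and TRP1, marker genes that are deleted in many laboratory strains, were at 10.1%, 12.6% and 14.3% in H4d4-14, at 8.70%, 10.3% and 12.6% in H4K16Q and at 0.0615%, 1.88% and 3.75% in H4R23A, while ADE2, an intact gene, was at 95.1%, 99.5% and 102%. Reads of these 7 histone and marker genes were thus present in the H4d4-14 column at 10.1 to 28.1% of the wild-type level, and in the H4K16Q column at 7.07 to 27.7%. Reads of another strain and reads placed on these genes from elsewhere cannot be told apart here. Which replicate carried them was not visible in the NDR counts, because the NDR before LYS2 kept 55.8 and 122 CPM in the 2 replicates of H4d4-14 and 108 and 85.9 CPM in H4R23A, against a BY4741 median of 72.8 CPM (CPM, counts per 1000000 spanning pairs after library scaling). The part of these reads in the results below was not tested. Of the other markers, URA3 stood at 2749% of BY4741 in H4d4-14 (1695 reads against 335), 2993% in H4R23A and 2802% in H4K16Q. HIS3 stood at 113%, LEU2 at 91.4% and MET17 at 3.46% (1 read) in H4d4-14, and LEU2 at 605% and MET17 at 937% in H4K16Q. The strains thus also differed at markers other than the histone genes, and the part of these differences was not tested either.

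Compared with BY4741, H4d4-14 held a larger share of IN-IN pairs, a larger share of same-direction pairs under 100 bp and a smaller share at 501 to 1000 bp. Listed pairs fall into 4 orientations. A fragment that was never ligated is read inward from both ends and gives an IN-IN pair. IN-IN pairs made up 92.8% and 94.7% of the pairs of H4d4-14 replicates 1 and 2, against a lowest value of 71.5%, a median of 83.3% and a highest value of 90.0% over the 16 BY4741 replicates. Both replicates lay above the whole wild-type range, and the difference of means was 11.1 percentage points (exact two-sided permutation over replicates, adjusted p = 0.047). IN-OUT pairs fell to 2.02% and 1.55% from a wild-type median of 4.86% (lowest 2.89%), and OUT-IN pairs to 2.07% and 1.41% from 4.79% (lowest 2.91%), each with adjusted p = 0.047 in the exact test. OUT-OUT pairs stood at 3.08% and 2.32% against a wild-type range of 3.96 to 12.2% (exact test, adjusted p = 0.054), below the range in both replicates but short of the threshold. The libraries made without ligation and without crosslinking held 99.97% and 99.2% IN-IN pairs. The H4R23A replicates held 88.8% and 86.6% and H4K16Q 83.3%, inside the wild-type range, whereas the single H4Q93E library held 93.3% IN-IN and 1.95% IN-OUT pairs, beyond that range and between the H4d4-14 values. Column names carry a second number, shared by libraries of different strains, whose meaning the labels do not give. H4Q93E and H4d4-14 replicate 1 share that number with the BY4741 replicate of the highest IN-IN share, 90.0%. H4R23A replicate 1, at 88.8% and inside the wild-type range, carries the same number. The part of this number in the IN-IN difference was not tested beyond the values within a number given below.

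The 2 against 16 replicates can be split in 153 ways, so the smallest p the exact test can give is 0.0065 before adjustment. Over the 50 distance measures, adjusted together, 21 passed at an adjusted p of 0.05, or 42% of the measures. They were 4 of 14 over same-direction pairs, 3 of 9 within IN-IN, 4 of 9 within IN-OUT, 5 of 9 within OUT-IN and 5 of 9 within OUT-OUT pairs. Many measures share pairs with each other, so these are not separate findings.

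Same-direction pairs (IN-OUT and OUT-IN together) were then described by distance. Pairs 1 to 100 bp apart, less than the length of DNA around a nucleosome, rose to 16.4% and 22.9% of same-direction pairs in H4d4-14. BY4741 lay between 6.69% and 13.5% with a median of 10.1%, H4R23A at 12.1% and 11.1% and H4Q93E at 12.4%. Both H4d4-14 replicates lay above the wild-type range (exact permutation test, adjusted p = 0.041). The same band held 31.2% of same-direction pairs in the library without crosslinking and 67.2% in the library without ligation. The part of unligated material in this difference was not tested. Pairs 101 to 500 bp apart made up 57.9% and 58.2% against a lowest value of 54.4% and a median of 60.9% in BY4741, with no call (exact test, adjusted p = 0.44).

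**Figure D1:**
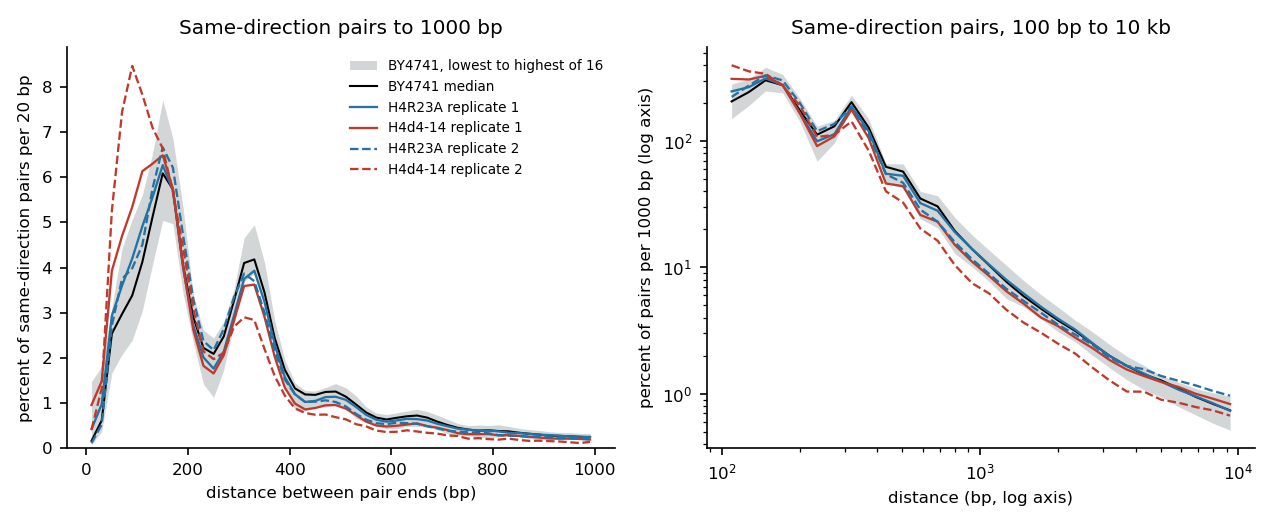
Share of same-direction pairs by distance between pair ends, per 20 bp on linear axes to 1000 bp (left) and per 1000 bp on log axes from 100 bp to 10 kb (right). The grey band spans the 16 BY4741 replicates and the black line is their median. The H4d4-14 lines (red) lie above the band below 100 bp, where they hold 16.4% and 22.9% of pairs, and along its lower edge or below it from 501 to 1000 bp, where they hold 9.82% and 7.08%.

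Longer contacts within 1 kb fell. Pairs 501 to 1000 bp apart, which join nucleosomes several positions from each other, made up 9.82% and 7.08% of same-direction pairs in H4d4-14, against a lowest value of 8.94%, a median of 12.9% and a highest value of 15.5% in BY4741. Replicate 2 lay below the wild-type range and replicate 1 inside it, with 15 of the 16 wild-type replicates above both (exact test, adjusted p = 0.044). The reach ratio, the log2 of pairs at 501 to 1000 bp over pairs at 101 to 500 bp, leaves out the pairs under 100 bp. It was -2.56 and -3.04 in H4d4-14, against -2.85 to -1.81 with a median of -2.26 in BY4741, a difference of -0.56 (exact test, adjusted p = 0.044). H4R23A gave -2.26 and -2.57, H4-WT -1.82, the single H4K16Q replicate -1.96 and H4Q93E -2.34. The H4-WT value lay near the upper end of the wild-type range.

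Past 1 kb no band of same-direction pairs passed. Pairs at 1001 to 2000 bp made up 5.43% and 3.95% (wild-type range 5.04 to 8.35%, exact test, adjusted p = 0.059) and pairs at 2001 to 5000 bp 5.62% and 3.99% (lowest wild-type value 4.79%, exact test, adjusted p = 0.084). Pairs at 5001 to 10000 bp made up 4.85% and 3.82%, inside the wild-type range of 3.25 to 5.33% (exact test, adjusted p = 0.79). Among the pairs between 1 and 10 kb the slope of log density on log distance was -1.08 and -1.03 in H4d4-14 and ran from -1.37 to -0.97 in BY4741, with 15 wild-type replicates below both (exact test, adjusted p = 0.054). Within OUT-IN pairs and within IN-IN pairs alone the same shallower slope passed, each with adjusted p = 0.047 in the exact test. Of the pairs past 1 kb, those at 9001 to 10000 bp made up 5.18% and 5.49% against 3.35 to 6.04% in BY4741.

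No difference was called in the ladder of nucleosome peaks beyond the first peak. The second peak of the same-direction profile lay at 319 and 322 bp in H4d4-14 and at 317 to 329 bp in BY4741 (exact test, adjusted p = 0.38). The mean spacing of peaks 2 to 4 was 165.5 and 151.5 bp against 149.5 to 168 bp (exact test, adjusted p = 0.67), and the second peak stood at 2.37 and 1.62 times the trough before it, against 1.74 to 4.42 times (exact test, adjusted p = 0.52). The first peak lay at 140 and 100 bp, below the wild-type range of 143 to 166 bp (exact test, adjusted p = 0.041). This call was lost with OUT-OUT pairs alone (exact test, adjusted p = 0.13) and over all 4 orientations (exact test, adjusted p = 0.084). It was also lost without the replicate 1 library of fewer same-direction pairs (exact test, adjusted p = 0.073). The difference of -33.8 bp was -13.8 bp without replicate 2. For replicate 2 the value of 100 bp is the lower edge of the window searched, so it is only an upper bound on the position, and the profile of that replicate kept rising toward distances below 100 bp.

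Mean shares at 501 to 5000 bp were lower in H4d4-14 within all 4 orientations, though not every measure passed. Within IN-IN pairs the reach ratio fell to -8.38 and -9.20 from a wild-type range of -7.51 to -5.50 (exact test, adjusted p = 0.041). H4Q93E also lay below that range at -8.17, and the libraries without crosslinking and without ligation gave -13 and -19.45. The band at 101 to 500 bp, the divisor of this ratio, held 94.5% and 90.4% of IN-IN pairs in H4d4-14. It held 97.8% in the library without ligation, and the part of unligated material in this ratio was not tested. Every H4d4-14 share of IN-IN pairs past 500 bp lay below the wild-type range, but none passed (exact test, adjusted p of 0.054 to 0.059). IN-IN pairs at 501 to 1000 bp made up 0.284% and 0.154% of IN-IN pairs against a lowest wild-type value of 0.450%. Within IN-OUT pairs the 1 to 100 bp share rose to 16.3% and 21.7% and within OUT-IN pairs to 16.6% and 24.3%, both above every wild-type replicate (exact test, adjusted p = 0.041), and their reach ratios fell by 0.56 and 0.57 (exact test, adjusted p = 0.044). Within OUT-OUT pairs the 1 to 100 bp share rose to 60.8% and 68.4% (exact test, adjusted p = 0.044). The OUT-OUT shares at 101 to 500 bp (23.9% and 20.9%), 501 to 1000 bp (5.13% and 3.47%) and 1001 to 2000 bp (3.28% and 2.26%) fell below every wild-type replicate, each with adjusted p = 0.041 in the exact test. Their lowest wild-type values were 24.5%, 5.74% and 3.38%. OUT-OUT pairs at 2001 to 5000 bp fell to 3.60% and 2.58% (exact test, adjusted p = 0.047). The OUT-OUT reach ratio, at -2.22 and -2.59 against -2.33 to -1.75 in BY4741, did not pass (exact test, adjusted p = 0.054). The share at 5001 to 10000 bp did not pass in any orientation.

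**Figure D2:**
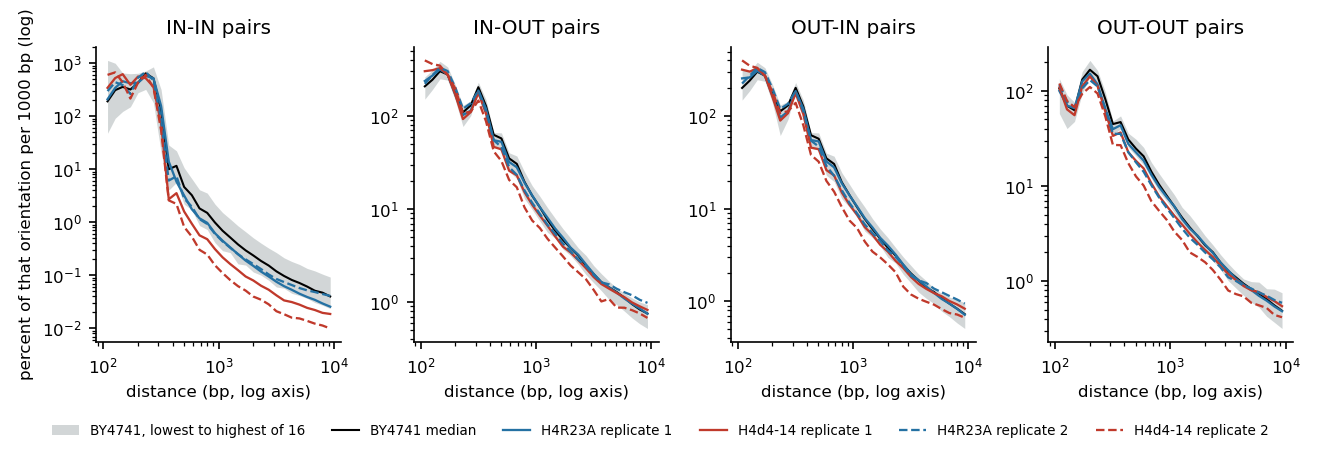
Share of pairs of each orientation per 1000 bp against distance from 100 bp to 10 kb, on log axes, with the 16 BY4741 replicates as a grey band and their median in black. The H4d4-14 replicates (red) lie below the whole band past 500 bp in IN-IN pairs, where their reach ratios were -8.38 and -9.20, as do both at 501 to 2000 bp in OUT-OUT pairs. By the shares of each distance band, replicate 1 lies inside the band past 500 bp in IN-OUT and OUT-IN pairs and replicate 2 from 5001 bp on.

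The difference rested in part on 1 library. Of the 2 libraries of H4d4-14 replicate 1, the one with 194333 same-direction pairs gave an IN-IN share of 96.7%, a 1 to 100 bp share of 22.1% and a reach ratio of -2.91, and the one with 502123 pairs gave 88.1%, 14.2% and -2.45. The libraries of replicate 2 gave reach ratios of -2.95 and -3.23. Without the library of 194333 pairs all 21 measures kept their direction, but 14 lost the call: the IN-IN difference was then 8.75 percentage points (exact test, adjusted p = 0.11), that of the 501 to 1000 bp share -3.95 points (exact test, adjusted p = 0.075) and that of the reach ratio -0.51 (exact test, adjusted p = 0.091). Without the library of 502123 pairs 1 of the 21 lost its call. Against the BY4741 replicate with the same second number in its column name, the 2 replicates of H4d4-14 differed in reach ratio by -0.38 and -0.81, in 1 to 100 bp share by 4.33 and 12.3 points and in IN-IN share by 2.82 and 7.79 points.

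**Figure D3:**
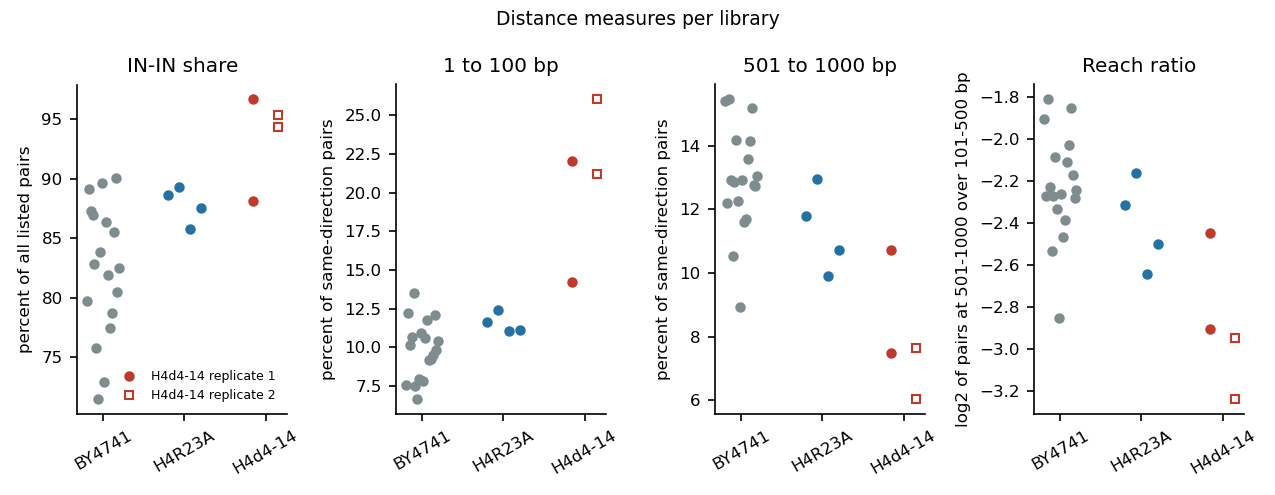
Values of each library for the IN-IN share of listed pairs, the shares of same-direction pairs at 1 to 100 and 501 to 1000 bp, and the log2 reach ratio; points are 18 BY4741 libraries (grey), 4 H4R23A libraries (blue) and 4 H4d4-14 libraries (red, circles for replicate 1 and squares for replicate 2). The library of replicate 1 with an IN-IN share of 88.1% lies near the wild-type points, and the other 3 lie beyond them in the IN-IN and 1 to 100 bp shares.

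Pairs that span an NDR were rarer per listed pair in H4d4-14, at 31.3 and 18.7 per 1000 listed pairs against 42.4 to 131 in BY4741, and not per same-direction pair, at 766 and 633 per 1000 against 539 to 918. All NDR changes below are therefore relative to the library's own spanning pairs. Among 6719 NDRs, 2 rose and none fell at an adjusted p of 0.05, or 0.0298% of those tested (edgeR quasi-likelihood test). At an unadjusted p of 0.05, 367 were higher and 298 lower in the same test. DESeq2 also called 2 higher and none lower. The median log2 difference over all NDRs was -0.03. Both replicates exceeded every BY4741 replicate at 81 NDRs, or 1.21%, and lay under every one at 112, or 1.67%.

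The 2 NDRs that rose are neighbours on chromosome XIII. The first, at position 192034 (sacCer3), lies 267 bp before the start codon of RRN11, which encodes a subunit of the core factor of RNA polymerase I. It stood at 302 and 423 CPM in the H4d4-14 replicates, from 157 and 52 read pairs, against 132 ± 32.6 CPM (SD, n = 16) and a range of 67.1 to 191 CPM in BY4741. H4R23A gave 136 and 173 CPM and H4-WT 116 CPM, both inside that range. The log2 difference was 1.41 (SE 0.25, edgeR adjusted p = 0.0033). The second, at position 194810 between CAT2 and VPS71, has no start codon within 500 bp. It stood at 377 and 602 CPM against 189 ± 54.8 CPM (SD, n = 16) and a range of 112 to 309 CPM, a log2 difference of 1.39 (SE 0.26, edgeR adjusted p = 0.0058). All 4 H4d4-14 libraries showed the excess. They held 272 to 484 of every 1000000 spanning pairs at the first NDR and 353 to 523 at the second, without the library scaling of CPM. These libraries were summed for the calls, so they are no separate evidence. Each call was lost without either H4d4-14 replicate, with log2 differences of 1.20 to 1.69 for the first and 1.05 to 1.72 for the second.

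The excess fell off on both sides of these NDRs. The next NDR to the right, at position 196739 inside the overlapping genes YML039W and YML040W, stood at 475 and 683 CPM against 117 to 568 in BY4741 (log2 difference 1.35, edgeR adjusted p = 0.21). The next to the left, 3506 bp from the first and inside YML045W, had a log2 difference of 0.95 (edgeR adjusted p = 0.38), and differences then shrank to 0.42 at 13753 bp on the left and 0.53 at 10970 bp on the right. YML045W and YML039W, which flank the region, are gag-pol genes of Ty1 retrotransposons, a multi-copy family whose reads cannot be assigned to 1 copy with certainty. Read levels inside the 3 genes between them were also high. The authors' short-fragment signal was 1.88 times the BY4741 level in VPS71 (a subunit of the SWR1 remodeller), 1.86 times in CAT2 (carnitine acetyltransferase) and 1.80 times in RRN11. These ranked 1, 2 and 4 of the 6380 genes with at least 500 short reads in BY4741, and in H4R23A the same genes stood at 0.965, 1.06 and 1.03 times. Rank 3 was ADD37, listed at 168 bp with 199 reads. Genes outside the Ty1 copies stood near the wild-type level, for example PRP39 at 1.01 times and YMD8 at 0.969 times, with SRC1, listed at 222 bp with 279 reads, at 1.39 times. This region was looked at in the gene tables after its NDR values were seen, and the part of its read level in the 2 NDR calls was not tested.

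**Figure D4:**
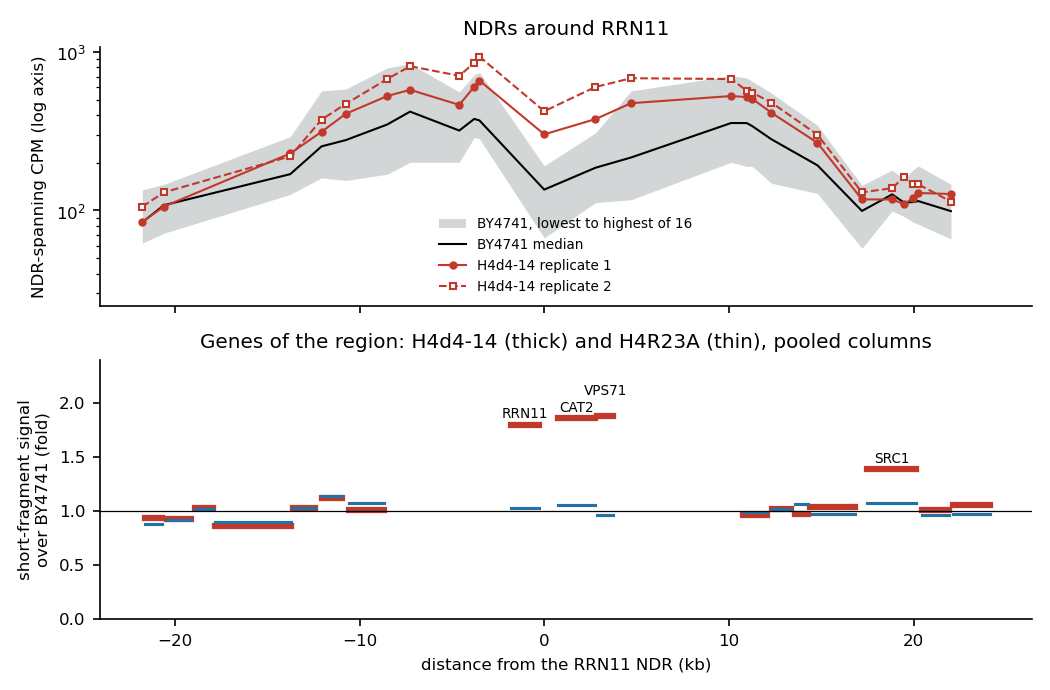
NDR-spanning CPM on a log axis (top) and short-fragment signal relative to BY4741 (bottom) against distance from the RRN11 NDR in kb. Both H4d4-14 replicates (red) leave the band of 16 BY4741 replicates at the RRN11 NDR and the NDR beside it. RRN11, CAT2 and VPS71 stand at 1.80, 1.86 and 1.88 times the wild-type level, while most of their neighbours lie near 1.

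Of the gene lists with at least 10 NDRs, ribosomal protein genes had the highest median difference, and none of their NDRs was called. Their 101 NDRs, at 98 genes, had a median log2 difference of 0.31 against -0.03 over all NDRs, and 86 of 101 lay above 0. The median over these NDRs was 0.30 and 0.57 in the 2 H4d4-14 replicates relative to the BY4741 mean, above the -0.08 to 0.21 of the BY4741 replicates, and 0.10 and 0.20 in H4R23A. Both replicates exceeded every wild-type replicate at 11 of the 101 NDRs, or 10.9% against 1.21% of all NDRs, and none lay under the range. At an unadjusted p of 0.05, 28 of the 101 were higher and none lower in the edgeR test, against 367 and 298 of all 6719 NDRs. The smallest adjusted p in the list was 0.33 (edgeR). The ribosomal protein NDRs are thinly spanned, with a median of 37.6 CPM in BY4741. The 1381 NDRs at 30 to 60 CPM, the class that holds this value, had a median difference of 0.10, with 25 (1.81%) above the range. The 80 NDRs under 30 CPM had a median of 0.31, with 9 (11.2%) above the range. The part of the spanning level in the list's difference was not tested.

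RPL33A, which encodes a protein of the large ribosomal subunit, had the largest difference of the list. Its NDR 140 bp before the start codon stood at 61.6 and 40.7 CPM against 10.8 to 32.1 CPM in BY4741, and at 31.8 and 50.1 CPM in H4R23A (log2 difference 1.18, SE 0.33, edgeR adjusted p = 0.33). RPL21A, another large-subunit gene, stood at 52.0 and 73.2 CPM against 0 to 40.9 CPM (log2 difference 1.13, SE 0.35, edgeR adjusted p = 0.38). At both genes the 2 H4d4-14 replicates lay above the whole wild-type range. Others above the range lay at RPL29, RPL26B, RPL2A, RPL12A, RPS22A, RPL34A and RPL39, with log2 differences of 0.53 to 0.86. They were named after their values were seen.

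No shift was shown for glycolytic genes. Their 23 NDRs had a median log2 difference of 0.28, 20 of them above 0, with none called and none outside the wild-type range. The list's median was 0.20 and 0.35 in the 2 replicates against -0.20 to 0.21 in BY4741, so replicate 1 lay inside and replicate 2 outside. TDH3, the main glyceraldehyde-3-phosphate dehydrogenase gene, had the largest difference at 53.9 and 81.3 CPM against 17.1 to 58.4 CPM (log2 difference 0.87, edgeR adjusted p = 0.41). The 13 NDRs of Hsf1 targets, the heat shock chaperone genes, had a median of 0.20 with both replicates (0.20 and 0.22) above the wild-type list medians of -0.30 to 0.18, and 8 of 13 above 0. H4R23A stood at 0.13 and 0.21. Relative to all NDRs the Hsf1 median was 0.23 higher, or 0.082 with the replicate block and up to 0.26 under the other settings. Without that reference it turned to -0.011 with RLE scaling and -0.0094 with DESeq2, which shift all NDRs. The gap of the ribosomal protein list to all NDRs, 0.34, ran from 0.29 to 0.56 over the settings, and that of glycolysis, 0.31, from 0.18 to 0.46.

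**Figure D5:**
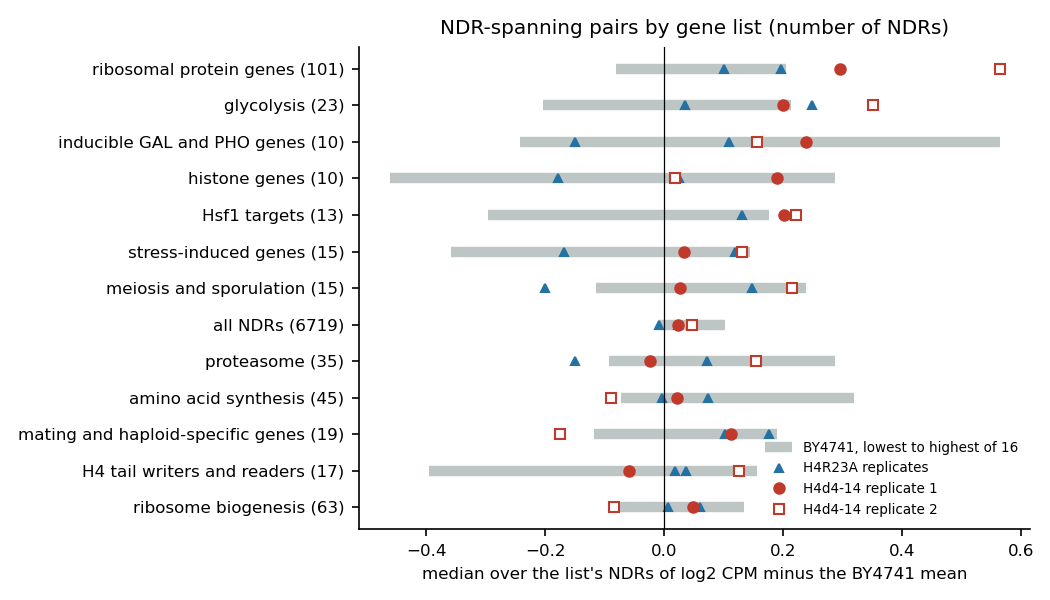
Median over each list's NDRs of log2 CPM minus the BY4741 mean, for both H4d4-14 replicates (red), both H4R23A replicates (blue) and the range of the 16 BY4741 replicates (grey), with the number of NDRs in brackets. The ribosomal protein list lies at 0.30 and 0.57 in H4d4-14, outside its wild-type range of -0.08 to 0.21.

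The remaining lists gave no call at any NDR. The genes that write or read the H4 tail, among them the acetyltransferase genes ESA1 and SAS2 and the silencing gene SIR2, had 17 NDRs with a median of -0.09 and 5 above 0. Ribosome biogenesis genes had 63 NDRs with a median of -0.09, and 2 of these, or 3.17% against 1.67% of all NDRs, lay under the wild-type range. Proteasome genes had 35 with a median of -0.03, amino acid synthesis genes 45 with a median of -0.04, and stress-induced genes 15 with a median of 0.03. Meiosis and sporulation genes had 15 with a median of 0.00 and mating and haploid-specific genes 19 with a median of -0.05. Histone genes had 10 with a median of 0.20 and inducible GAL and PHO genes 10 with a median of 0.21, both inside the spread of the wild-type replicates. The silent mating loci, where Sir3 binding to this tail acts, held 2 NDRs with a median of 0.21 over wild-type replicates ranging from -1.54 to 0.43, a spread in which no difference was detectable. The 9 NDRs of the genotype markers had a median of 0.16. Of the lists in this paragraph, only that of GAL and PHO genes kept 1 sign relative to all NDRs under every alternative setting (0.14 to 0.27).

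NDRs near chromosome ends and NDRs with many spanning pairs had medians above 0, and both groups stayed inside the wild-type spread. The 185 NDRs within 10 kb of an end had a median log2 difference of 0.36, with 0.16 and 0.68 in the replicates and -0.62 to 1.01 in BY4741. The 474 NDRs at 200 CPM or more in BY4741 had a median of 0.55, 450 of them above 0, with 0.43 and 0.82 in the replicates and -0.57 to 0.98 in BY4741. Of the 474, 5 lay above the range, or 1.05% against 1.21% of all NDRs. H4R23A gave -0.12 and 0.64. The 1714 NDRs at 100 to 200 CPM had a median of -0.11 and the 1814 NDRs inside genes with no start codon near them a median of -0.11, the latter with 49 NDRs (2.70%, against 1.67% of all) under the wild-type range and 11 (0.606%, against 1.21%) above it. NDRs within 200 bp of a domain boundary that the authors called in wild type had the same median as the others, -0.03 for 2345 and -0.03 for 4374 NDRs.

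With the second number of the column names as a block, 454 NDRs rose, or 6.76%, and 28 fell (edgeR). The block compares each H4d4-14 replicate with the libraries of its own number, of which 1 is a BY4741 replicate. Of the 454, 345 (76%) had 200 CPM or more in BY4741, against 7.05% of all NDRs, and 24.2% lay within 30 kb of a chromosome end, against 7.47% of all. Since the block chose them, their differences within a number are no separate evidence. Among them were 4 of the 101 ribosomal protein NDRs and none of the 23 glycolysis NDRs, against 6.76% of all NDRs.

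H4d4-14 was set against H4R23A in the same fit. No NDR was called (edgeR, 297 at an unadjusted p of 0.05, and none with DESeq2, 345 at an unadjusted p of 0.05), and the RRN11 NDR differed by 1.17 (edgeR adjusted p = 0.98). H4R23A against BY4741 gave 3 NDRs lower and none higher. The distance measures of H4d4-14 and H4R23A were not tested against each other, since the exact permutation test used for them cannot reach a p under 0.05 with 2 against 2 replicates. The replicate values do not overlap for the IN-IN share (92.8% and 94.7% against 88.8% and 86.6%). Nor do they for the 1 to 100 bp share (16.4% and 22.9% against 12.1% and 11.1%). At 501 to 1000 bp the shares were 9.82% and 7.08% against 12.2% and 10.3%, also apart. Such separation was not counted over the 50 measures, and with 2 against 2 values it is common without any difference. By library the values overlap in part. The H4d4-14 replicate 1 library of 502123 same-direction pairs held 88.1% IN-IN pairs and 10.7% at 501 to 1000 bp. The H4R23A libraries ran from 85.8 to 89.3% and from 9.90 to 12.96%. Its 1 to 100 bp share of 14.2% lay above their 11.1 to 12.4%. Reach ratios did overlap, at -2.56 and -3.04 against -2.26 and -2.57.

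Inside genes, long fragments were scarcer relative to short ones in H4d4-14. The authors' gene tables hold, per gene, a long-fragment signal, a short-fragment signal and a log2 compaction score normalised on both, each with 1 pooled column per strain and so with no replicate and no test. Their signals are whole multiples of the value of 1 read, within 0.05 reads for 100% of values, so reads were recovered. Summed over genes, 2.92 long reads were found per 100 short reads in H4d4-14, 10.1 in BY4741, 6.15 in H4R23A and 9.98 in H4K16Q, a ratio of 0.290 for H4d4-14 against BY4741. The ratio was flat over gene length, from 0.309 in genes of 750 to 1000 bp to 0.286 in genes of 2500 to 4000 bp and 0.298 above 4000 bp. The part of unligated material in this ratio was not tested.

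The score followed gene length in H4d4-14. Of 4770 genes over 750 bp, 2801 (58.7%) had at least 50 long and 50 short reads in both columns and were measured. Their median score difference from BY4741 was -0.32 on the log2 scale, with quartiles of -0.46 and -0.16, and 2479 lay below 0. The median was 0.10 in the 36 measured genes of 750 to 1000 bp, -0.14 in those up to 1500 bp, -0.31 up to 2500 bp, -0.39 up to 4000 bp and -0.43 above. In H4R23A the same medians ran from -0.06 to -0.11, with -0.06 overall. Short genes reach the minimum of 50 long reads only where their long signal is high, so the 36 measured of 825 are not typical. Over all 825 genes of that length the median was -0.08.

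Differences past 1 on the log2 scale were found at 8 of the 2801 genes, or 0.286%, with 1 higher and 7 lower. This count was taken around 0, although the median gene stood at -0.32. Counted from that median, 1 gene lay past 1 higher (LYS2) and 2 lower (HIS3 and YOR203W), and no other gene did. Counting error is large at these genes, since the median gene had 110 long reads in H4d4-14 against 1949 in BY4741. The extremes were loci that differ between the strains. HIS3, an enzyme of histidine synthesis that is partly deleted in BY4741, had a score of 1.48 in H4d4-14 and 3.94 in BY4741, a difference of -2.47, and YOR203W, which overlaps it, had -2.15. H4R23A and H4K16Q gave -3.48 and -3.91 at HIS3. LYS2, an enzyme of lysine synthesis, had the highest difference at 1.93, from 158 long and 793 short reads. At LYS2 few reads remained in H4d4-14, against 7898 long and 43203 short reads in BY4741. Whether those left come from an intact gene cannot be told here, and what sets the LYS2 score was not tested.

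Apart from these loci, SSA4, an inducible Hsp70 chaperone, had a difference of -1.30 from 76 long reads (95% Poisson interval 59.9 to 95.1), and CLN2, a G1 cyclin, -1.21 from 66 (51.0 to 84.0). AMA1, a meiotic activator of the anaphase-promoting complex, had -1.13, and TRL1, the tRNA ligase, -1.03. ALG7, which starts the synthesis of N-linked glycans, followed with -0.98. The corresponding differences in H4R23A were -0.36, -0.36, -0.17, -0.24 and -0.36. COX1, a mitochondrial gene, had -1.12 in H4d4-14 and 2.12 in H4R23A. The 19 mitochondrial genes as a group had a median log2 short-fragment ratio to BY4741 of -0.55 in H4d4-14 and 1.39 in H4R23A. After LYS2 the highest genes were NRE1 at 0.68, SYN8 (a SNARE protein) at 0.64, SOD2 (mitochondrial superoxide dismutase) at 0.61, SNZ2 (vitamin B6 synthesis) at 0.59, DPM1 (dolichol phosphate mannose synthase) at 0.59, PRY2 (a sterol-binding secreted protein) at 0.58 and HBN1 at 0.58. All of these are 773 to 1146 bp long, the lengths at which the measured genes are selected for high long signal.

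Among the gene lists with at least 3 measured genes, median score differences ran from -0.36 for stress-induced genes (12 measured of 26 listed) to -0.20 for ribosomal protein genes, of which only 3 of 138 were measured. Amino acid synthesis genes, with 40 of 51 measured, had a median of -0.21 and 27 members above the median of all genes. Glycolysis genes, with 14 of 20, had -0.25. HXK1, a hexokinase, was lowest among them at -0.63. Ribosome biogenesis genes, with 40 of 65, had -0.26. The Hsf1 targets, with 10 of 21, had -0.24, and SSA2, a constitutive Hsp70, stood at -0.40. H4 tail writers and readers, with 13 of 20, had -0.26, and the remodeller ISW1 stood at -0.52 and MSI1, a chromatin assembly factor subunit, at -0.58. Proteasome genes, with 10 of 35, had -0.35, with RPT4 at -0.75 and RPN7 at -0.62. Meiosis and sporulation genes, with 16 of 32, had -0.32, with DIT2 at -0.94 and REC8 at -0.64. Mating and haploid-specific genes, with 16 of 28, had -0.35, with GPA1 at -0.70. Inducible GAL and PHO genes, with 9 of 14, had -0.23, with PHO89 at -0.60 and GAL10 at -0.59. The 1 measured of 11 histone genes stood at -0.36, and none of the 4 genes of the silent mating loci reached the read minimum.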

How the data were processed

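The tools CASAVA 1.8.2 and Bowtie2 and the build sacCer3 are named, without roles, in the submitters' processing notes. No source used here gives the counting step. The deposited distance tables hold, per the file headers, whole-number counts of pairs by distance up to 10000 bp in 4 orientations, and the deposited NDR table holds whole-number counts of spanning pairs. The authors' gene tables hold a long and a short signal and a log2 score that pool the replicates of a strain, with gene lengths beside them. The authors' deposited boundary list gives each wild-type boundary a strength score on a scale that is not stated; here its positions alone were used. Columns not used here numbered 10 in the NDR table, 36 in each distance table and 8 in each gene table, and BY4741 replicate 3 has no column.

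NDR counts of repeat libraries were summed, and 59 replicates of all groups were fitted together with edgeR 4.0.16 (R 4.3.3; filterByExpr, TMM, quasi-likelihood test, group as the only term), with Benjamini-Hochberg adjustment over all 6719 NDRs and a threshold of 0.05. DESeq2 1.42.0 was an alternative. An NDR took a gene's name where the start codon, from RefSeq R64, was no more than 500 bp ahead of it or 50 bp behind, which named 3586 NDRs. Distance measures were computed per replicate in Python 3.11.15 and compared by exact two-sided permutation, with Benjamini-Hochberg adjustment over 50 measures. Ladder peaks were read from profiles smoothed over 11 bp. Gene score differences past 1 were counted, with no test; genes needed over 750 bp and 50 long and 50 short reads in both columns. Intervals of long reads are exact Poisson intervals at 95%. Those of the histone gene percentages are exact binomial intervals at 95% of the read ratio, and both kinds cover counting error only.

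By rule, the text names NDRs called with both replicates outside the wild-type range and a mean of at least 20 reads per BY4741 replicate (at most 10 per direction), up to 3 called members per list, the 8 highest and 8 lowest gene scores, and up to 2 members per list with the most extreme score. NDRs named without a call, such as those of ribosomal protein genes, TDH3 and the neighbours of RRN11, were chosen after their values were seen. The comparison and the gene lists were chosen with earlier results of these data known. Some values are not reported here.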

Additional observations from a re-analysis of the deposited data

How the results depend on the processing

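The count of 2 NDRs became 6434, all lower, with all listed pairs as the library size, where the median over NDRs was -1.70 and the 2 named NDRs turned to -0.38 and -0.46. It was 0 with same-direction pairs as the library size (821 at an unadjusted p of 0.05; edgeR), 0 with H4-WT as control (730 at an unadjusted p of 0.05), 482 with the second number of the column names as a block and 10 with repeat libraries separate; without either H4d4-14 replicate it was 0, and without BY4741 replicate 17 it was 3. RLE scaling, no filter, only these groups in the fit and DESeq2 each kept the same 2. RLE scaling and DESeq2 shifted the median of all NDRs to -0.24. Against H4R23A the block gave 58. Chosen after seeing the data, leaving out the deeper library of H4d4-14 replicate 1 gave 56 NDRs and the shallower 2.

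In the libraries of H4d4-14 replicate 1, deeper means more same-direction pairs (502123 against 194333). The shallower library held more listed pairs, 9429265 against 7632087. For distance, the slope difference of 0.19 passed with OUT-IN pairs alone (0.19, adjusted p = 0.045, exact permutation). It also passed without BY4741 replicate 17 (0.20, adjusted p = 0.019, exact permutation) and without the deeper library (0.26, adjusted p = 0.022, exact permutation). The reach ratio lost its call with OUT-OUT pairs (-0.33, adjusted p = 0.051) and with bands of 150 to 500 and 500 to 1500 bp (-0.37, adjusted p = 0.084). The 1 to 100 bp share lost it over all orientations (0.62 points, adjusted p = 0.77), where IN-IN pairs dominate. Spacing moved to 6.16 bp with OUT-OUT pairs and 15.0 bp unsmoothed. Without 1 H4d4-14 replicate, the 1 to 100 bp difference ran from 6.53 to 13.0 points, the 501 to 1000 bp difference from -5.78 to -3.04 points, the reach difference from -0.80 to -0.32, the spacing difference from -9.13 to 4.88 bp and the peak-over-trough difference from -0.82 to -0.070. Within a column number, the 1 to 100 bp difference was 4.33 and 12.3 points, the IN-IN difference 2.82 in the first, the peak-over-trough difference -2.06 in the first and the spacing difference -13.5 bp in the second. Without the deeper library the peak-over-trough difference was 0.47. Without the shallower library the slope difference was 0.16 and the IN-IN, 501 to 1000 bp and reach differences were 8.75, -3.95 and -0.51, none called. All 21 called measures kept their direction where they could be recomputed.

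Replicate numbers were not shown to pair the strains: deviations of same-numbered replicates correlated at 0.146 and -0.007. With the replicate block, 10 NDRs were called, the slope difference was 0.30 and the peak-over-trough difference -1.49.

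The count of 8 genes was 3 with the raw log2 long-over-short ratio centred on its median, 20 with a minimum of 20 reads, 1 with 100, 561 at a threshold of 0.5 and 3 at 1.5. The gene columns used here hold no H4-WT column, so H4-WT could not be the control there. The depth of H4d4-14 replicate 2, with a mean of 21.4 pairs per NDR, limits single NDRs.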
